A study of Mus musculus with 9 samples.

Results

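The genes of mouse chromosome 8 were followed as a profile along the chromosome in clones of p53-deficient embryonic cells with 2, 3 or 4 chromosome sets. A gene was taken when the RefSeq accession of its array probe belonged to chromosome 8 and when its brightest probe was well above background, by the scanner software's own call, on all 3 arrays of at least 1 ploidy. Of 979 chromosome 8 genes with a probe, 684 met the rule, out of 12434 named genes measured in all, and 295 did not. Of the 684, 605 were above background on all 9 arrays, 671 were protein-coding and 13 were not. The 4 members at the edge of the rule, AI429214, Mef2b, Gdf15 and Adgrg3, were above background on 4 arrays, with mean log2 signals of −3.83 to −2.8. The 38 genes just outside, above background on at most 2 arrays of any ploidy, had a median of −3.68, against 1.86 for the members.

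The series holds 9 one-colour arrays, 1 per clone, from 3 diploid, 3 triploid and 3 tetraploid clones, to compare gene expression between ploidies. The genotype given for all 9 clones, controls included, is p53-/-, so by that field no clone with intact p53 was present. In the written description of each clone except diploid clone 1 a different number stands after the p, taken here as an entry error. All clones were grown in serum-containing minimal essential medium and were not treated. The labels call the cells embryonic and name no tissue, and nothing says that the clones of a ploidy came from separate cultures or animals, so p-values measure only the spread between these samples, which may be technical. Each sample is thus 1 clone, and whether the clones share an origin is not stated. Levels are log2 processed signals minus the 75th percentile of the same array. A shift is a clone's level minus the mean of the diploid clones, or of the other diploid clones where the clone is diploid, less the median of that difference over all 21797 features tested.

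The number of copies of a chromosome is one of the things that set how much RNA its genes give, and a gain or loss of a whole chromosome moves many of its genes a little in the same direction. Cells without p53, a transcription factor that halts division or starts cell death after damage, tolerate abnormal chromosome numbers better than cells that have it. A microarray labels an equal mass of RNA from each clone, so that multiplying every chromosome alike leaves no trace, whereas a chromosome out of step with the others can show. Chromosome 8 was chosen for its shift in earlier results of these same data, so the shift is described here without a test. The measurements are of RNA, and chromosome copies were not measured in these files.

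The promoters of 3 members are shown because Mt2 and Klf2 passed the test between triploid and diploid clones, in opposite directions, and Mt1, beside Mt2, did not. The sequences run from 250 bases before to 50 bases after the start of each gene, 5′ to 3′ on the gene's strand, from RefSeq on GRCm38.p6. They lie at chr8:94172368-94172667 for Mt2, chr8:94178839-94179138 for Mt1 and chr8:72318812-72319111 for Klf2, all on the plus strand. Capitals mark, in Mt2 and Mt1, the core of the metal response element, read as TGCACNC or TGCGCNC on either strand, and in Klf2 the GC box GGGCGG.
Mt2: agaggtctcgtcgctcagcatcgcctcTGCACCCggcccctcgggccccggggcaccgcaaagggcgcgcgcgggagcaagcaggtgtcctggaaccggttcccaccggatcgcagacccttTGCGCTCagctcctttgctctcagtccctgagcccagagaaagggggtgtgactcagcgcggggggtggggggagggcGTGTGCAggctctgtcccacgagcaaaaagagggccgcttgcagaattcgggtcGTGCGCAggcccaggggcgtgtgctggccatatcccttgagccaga
Mt1: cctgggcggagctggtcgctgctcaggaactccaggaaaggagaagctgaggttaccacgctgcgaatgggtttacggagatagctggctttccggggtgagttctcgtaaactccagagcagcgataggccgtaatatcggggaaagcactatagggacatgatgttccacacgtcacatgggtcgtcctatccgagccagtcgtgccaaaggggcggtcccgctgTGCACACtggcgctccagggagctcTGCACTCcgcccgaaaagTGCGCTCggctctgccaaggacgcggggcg
Klf2: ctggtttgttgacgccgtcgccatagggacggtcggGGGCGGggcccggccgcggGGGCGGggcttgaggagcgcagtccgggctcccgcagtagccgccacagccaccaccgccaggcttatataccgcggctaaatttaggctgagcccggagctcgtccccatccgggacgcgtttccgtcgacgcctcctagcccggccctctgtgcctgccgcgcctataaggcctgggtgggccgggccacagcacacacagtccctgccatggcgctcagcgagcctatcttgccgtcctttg
The Mt2 window held 4 matches, 2 of them on the other strand, and the Mt1 window held 3, all on the given strand, and no match overlapped another. Of 32851 promoter windows of that table, 25.7% held at least 1 such match and 1.97% at least 3. Among the 591 windows found for 477 of the members, the shares were 34.7% and 4.74%. GGGCGG occurred 2 times in the Klf2 window. At least 1 match, on either strand, was found in 35.7% of all windows and in 62.8% of those of members. A match is a run of letters and not evidence of binding.

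Detection was similar across ploidies. Between 44.8% and 50.9% of spots per array were well above background and 0 were saturated. Of 10 fibroblast and mesenchyme markers, 8, among them Col1a1, Col3a1 and Vim, were above background on all 9 arrays, and the epithelial markers Epcam and Cdh1, the blood markers Ptprc and Spi1 and the pluripotency markers Pou5f1 and Zfp42 were above background on 0. Nanog, Utf1, the blood marker Cd34, Pecam1, Kdr and 4 of 5 neural markers were above background on all 9, so the lists do not name a single cell type. A further 4 epithelial markers and 1 blood marker were above background on some arrays. The only Trp53 probe was above background on 1 of the 9 arrays. Diploid clone 1 was the only array on its slide.

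Chromosome 8 genes stood above the diploid level in all 3 tetraploid clones and in triploid clones 2 and 3, and near it in triploid clone 1. The median shift was 0.25, 0.35 and 0.36 in tetraploid clones 1 to 3 and 0, 0.23 and 0.41 in triploid clones 1 to 3. In diploid clones 1 to 3, each set against the other two, it was 0.05, −0.07 and 0.03. The tetraploid values and those of triploid clones 2 and 3 lay above all diploid values, whereas triploid clone 1 lay within the diploid range. The mean over clones was 0.32 ± 0.06 (SD, n = 3) for tetraploid, 0.21 ± 0.21 (SD, n = 3) for triploid and 0 ± 0.06 (SD, n = 3) for diploid clones. The triploid mean rested on which clones entered it, at 0.32 without triploid clone 1 and 0.11 without triploid clone 3. With only features above background on every array, which leaves out members that passed through 1 bright group, the means were 0.22 for triploid and 0.32 for tetraploid clones.

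**Figure D1:**
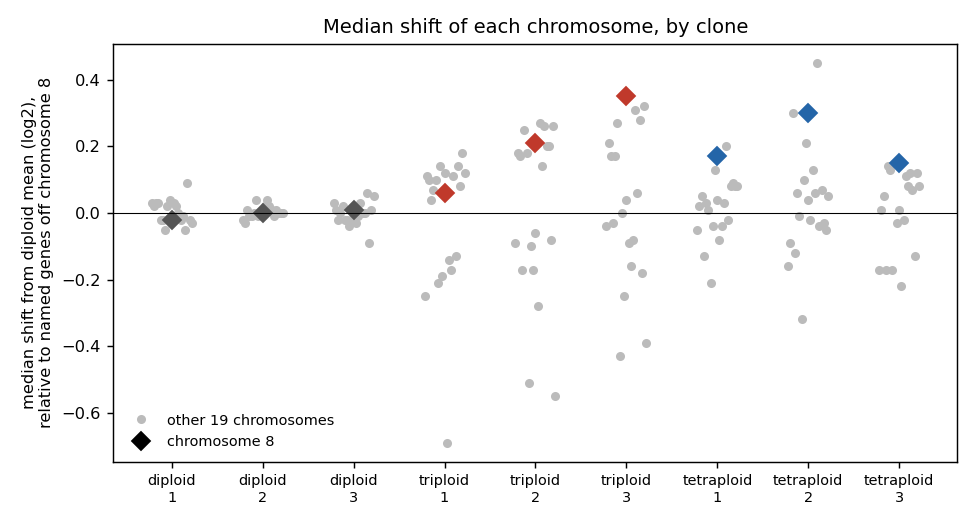
Median shift of each chromosome (y axis, log2, relative to the named genes off chromosome 8) in each of the 9 clones (x axis). Coloured diamonds are chromosome 8 and grey points the other 19 chromosomes; chromosome 8 lies between 0.15 and 0.35 in the tetraploid clones and triploid clones 2 and 3, and at 0.06 in triploid clone 1.

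The size of the shift depended on what it was set against. Over named genes of the other chromosomes the median shift was 0.07, 0.05 and 0.21 in tetraploid clones 1 to 3 and −0.06, 0.02 and 0.06 in the triploid clones. Relative to those named genes, chromosome 8 stood at 0.17, 0.30 and 0.15 in the tetraploid clones and at 0.06, 0.21 and 0.35 in the triploid clones. All 6 polyploid clones were above 0 on this scale, with means of 0.21 ± 0.08 (SD, n = 3) and 0.20 ± 0.15 (SD, n = 3), against −0.02, 0 and 0.01 in the diploid clones. Tetraploid clone 3 fell most between the scales, from 0.36 to 0.15. Chromosomes 3, 5, 15 and 17 were also above 0 in all 6 polyploid clones, so this was not particular to chromosome 8.

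Among 20 chromosomes ranked by median shift, chromosome 8 came first in triploid clone 3 and tetraploid clone 3 and second, behind chromosome 15, in tetraploid clones 1 and 2. Its rank was 5 in triploid clone 2 and 12 in triploid clone 1. By the mean over clones it ranked 4 among the triploid clones, after chromosomes 19, 15 and 17, and 2 among the tetraploid clones, after chromosome 15. In the diploid clones its ranks were 14, 10 and 6, inside a narrow spread of chromosome medians from −0.09 to 0.09.

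The shift was carried by many genes with small values rather than by a few. In tetraploid clones 1 to 3, 72.4%, 69.9% and 72.2% of members were above 0, and in triploid clones 2 and 3, 63.9% and 70.9%. The shares were 49.7% in triploid clone 1 and 53.2%, 42.7% and 53.4% in the diploid clones. The 25th and 75th percentiles of the member genes were −0.03 and 0.48 in tetraploid clone 1 and −0.1 and 0.79 in triploid clone 3. The 25th percentile was below 0 in every polyploid clone, so part of the members stayed below the diploid mean. These values are on the scale of all features. Relative to named genes of other chromosomes, 66.4%, 66.7% and 59.9% of members were above 0 in tetraploid clones 1 to 3. The shares on that scale were 53.4%, 62.4% and 68.6% in triploid clones 1 to 3 and 47.2%, 50.4% and 51.6% in diploid clones 1 to 3.

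Read along the chromosome in 10 bins of 68 or 69 genes, the bin medians of most polyploid clones were above 0 from end to end. In triploid clones 2 and 3 and in all 3 tetraploid clones, 10 of 10 bins had a median above 0, on the scale of all features and also relative to named genes. In triploid clone 1, 4 of 10 bins were above 0, or 7 relative to named genes. Diploid clones 1 to 3 had 8, 2 and 8 bins above 0, with medians from −0.22 to 0.13. The lowest bin of triploid clone 2, at 0.09, was inside that range. Relative to named genes, diploid bins ran from −0.15 to 0.10. On that scale the lowest bins of triploid clone 2 and tetraploid clones 1 and 3, at 0.07, 0.07 and 0.02, were no higher than some diploid bins. Those of triploid clone 3 and tetraploid clone 2, at 0.22 and 0.12, were above all diploid bins.

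**Figure D2:**
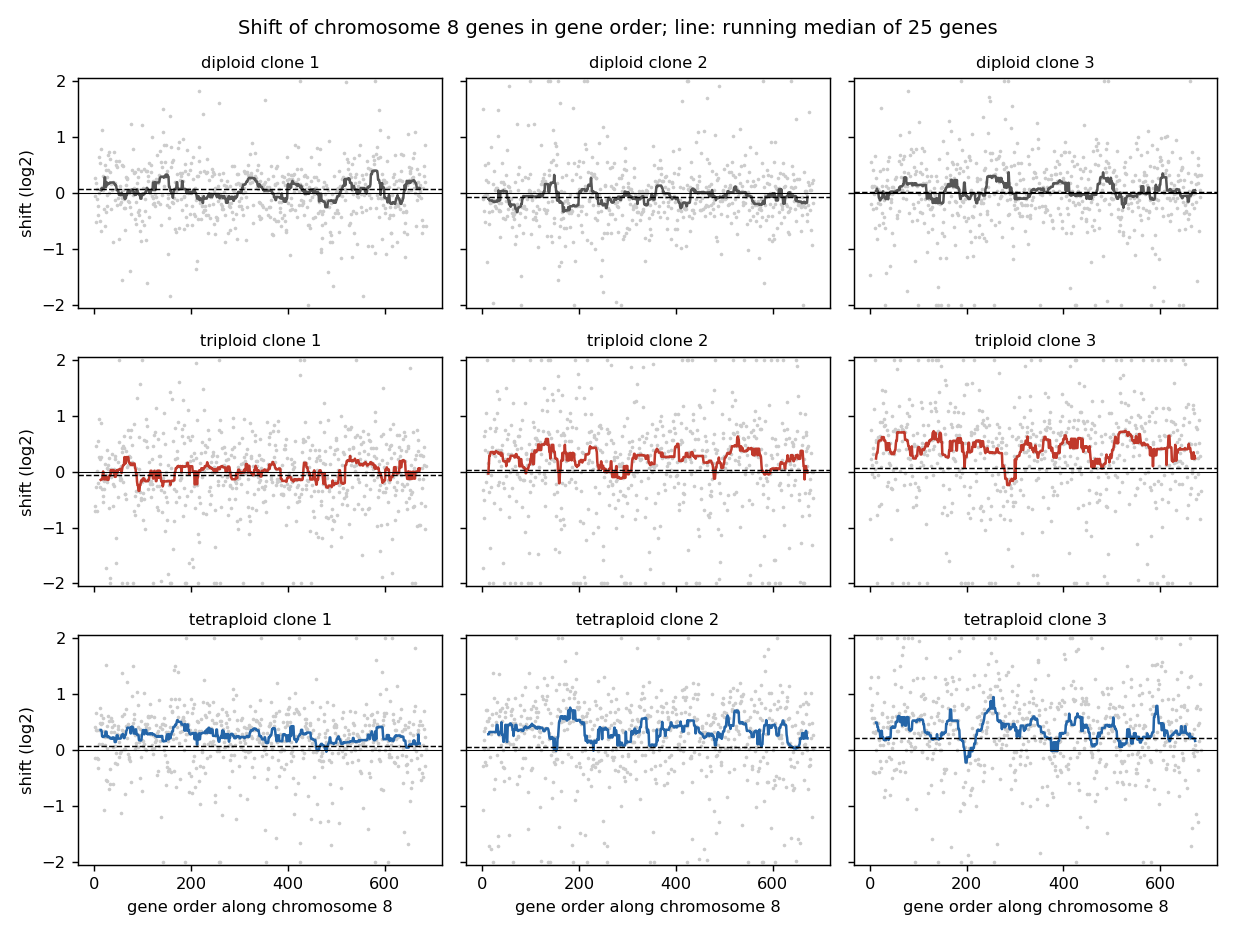
Shift of each of the 684 chromosome 8 genes (grey points, log2, values beyond 2 or −2 drawn at the edge) in gene order, 1 panel per clone. The coloured line is the running median of 25 genes, the solid line 0 and the dashed line the clone's median over named genes of other chromosomes; in tetraploid clone 1 the running median is above 0 in 659 of 660 windows and in triploid clone 1 in 326.

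The lowest and highest bins differed from clone to clone. In triploid clone 2 the bin medians ran from 0.09, in the bin from Zfp612 to Fbxo31, to 0.33, in the bin from Fbxl8 to Tat. In triploid clone 3 they ran from 0.28, in the bin that starts with Ocel1, to 0.53, again between Fbxl8 and Tat. That bin, the highest of both, was the lowest of tetraploid clone 1 at 0.14. Tetraploid clone 1 peaked at 0.35 between Leprotl1 and Tmem192, and tetraploid clone 2 at 0.53 in the same bin. Tetraploid clone 3 peaked at 0.50 in the next bin, between Marchf1 and Use1. The lowest bins of tetraploid clones 2 and 3 were the last one, at 0.17, and the bin between Ptger1 and Brd7, at 0.23.

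**Figure D3:**
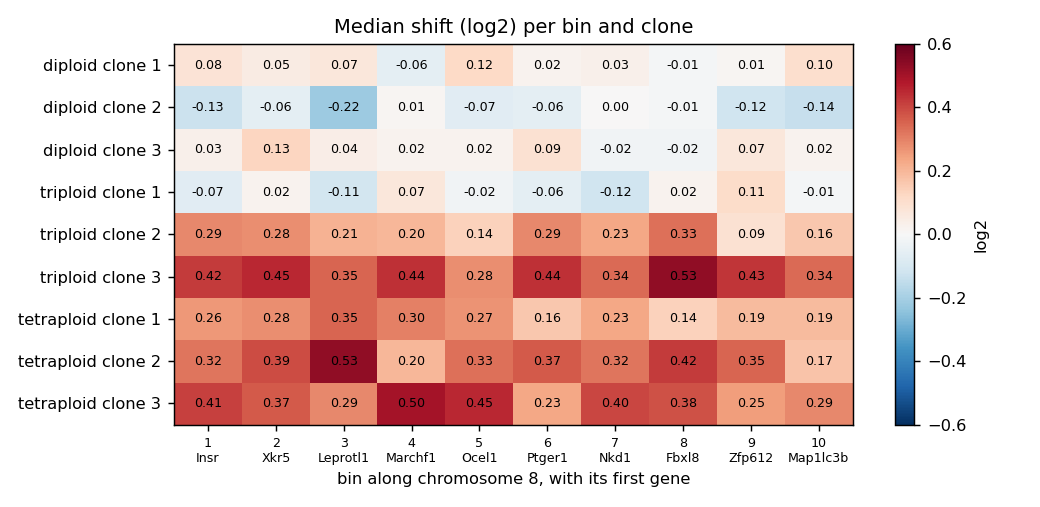
Median shift (log2, colour and printed value) of the 10 bins of chromosome 8 (x axis, each with its first gene) in the 9 clones (y axis). The rows of triploid clones 2 and 3 and of the tetraploid clones hold values from 0.09 to 0.53, and the row of triploid clone 1 holds −0.12 to 0.11.

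Neither end of the chromosome stood apart from the other in the triploid clones. The first 5 bins, which start with Insr, had medians of 0.21 and 0.39 in triploid clones 2 and 3, and the last 5 bins had 0.25 and 0.43. In the tetraploid clones the first 5 bins were the higher ones, at 0.29, 0.37 and 0.43 against 0.18, 0.32 and 0.31. The range between lowest and highest bin was 0.24 and 0.25 in triploid clones 2 and 3 and 0.21, 0.36 and 0.27 in tetraploid clones 1 to 3. The median range over the other 19 chromosomes, cut into bins the same way, was 0.36, 0.39, 0.25, 0.37 and 0.45. The bins of chromosome 8 thus lay closer together than those of the median chromosome in each of these 5 clones, by 0.01 in tetraploid clone 2 and by more in the others. A narrow range was not particular to clones with the shift. The range was 0.23 against 0.34 in triploid clone 1. It was 0.17 against 0.26 in diploid clone 1 and 0.14 against 0.27 in diploid clone 3, but 0.23 against 0.16 in diploid clone 2.

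A finer view with windows of 25 genes showed short stretches that left the profile, in diploid clones as well. Of 660 windows, 594 were above 0 in triploid clone 2, 638 in triploid clone 3, and 659, 658 and 637 in tetraploid clones 1 to 3. The lowest window of triploid clone 3, at −0.24, was centred on Ano8, a membrane protein gene, and that of tetraploid clone 3, at −0.22, on Clcn3, a chloride and proton exchanger. The highest windows of all 3 triploid clones were centred on the same gene, Nip7, a ribosome assembly factor, at 0.28, 0.63 and 0.73. Shifts of these clones subtract the same diploid mean, so the shared peak is not 3 separate observations. The window at Nip7 was 0.16, 0.70 and 0.12 in tetraploid clones 1 to 3. The highest of tetraploid clone 3 was at 0.95, around Fkbp8. Windows of diploid clones 1 to 3 ran from −0.25 to 0.40, from −0.34 to 0.33 and from −0.26 to 0.37. Of the 660 windows, 394, 187 and 363 were above 0 in these clones. The low windows at Ano8 and Clcn3 and the peak of triploid clone 1 were thus no larger than excursions in diploid clones. Apart from the common offset, adjacent genes moved together only weakly, with a rank correlation between each gene's shift and the next of 0.03 to 0.09 over 683 pairs in the 9 clones, as a description over genes of one array.

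The shift was larger among bright genes than among dim ones in 5 of the 6 polyploid clones. Members were divided by mean level at the limits that split all named genes into equal parts, 0.08 and 2.9, and each class was set against named genes of other chromosomes in the same class. In triploid clone 3 the 203 dim members exceeded such genes by 0.17, the 236 middle members by 0.34 and the 245 bright members by 0.38. In tetraploid clone 2 the values were 0.17, 0.28 and 0.31. Triploid clone 2 gave 0.18, 0.19 and 0.21, nearly alike in all classes. Tetraploid clones 1 and 3 gave 0.15, 0.12 and 0.19, and 0.17, 0.11 and 0.17, lowest in the middle class. Triploid clone 1 gave −0.04, 0.03 and 0.11. No error is attached to these medians, and the differences between classes were not tested.

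Probes that the rule had left out gave the same measure on other material. The 140 members with more than 1 kept probe had 165 further probes, and relative to named genes these stood at 0.14, 0.26 and 0.37 in triploid clones 1 to 3 and at 0.20, 0.34 and 0.16 in tetraploid clones 1 to 3. The brightest probes of the same genes stood at 0.10, 0.19 and 0.32, and at 0.16, 0.36 and 0.08. Both kinds of probe measure the same RNAs. A different set, 275 probes without a gene symbol here whose names give a chromosome 8 position on the array's build, mm9, did not show the shift in the triploid clones. Against such probes of other chromosomes they stood at −0.02, −0.05 and 0.06 in the triploid clones and at 0.08, 0.08 and 0.15 in the tetraploid clones, and at 0.06, 0.01 and −0.02 in the diploid clones. Among chromosomes these probes ranked 12, 12 and 6 in the triploid clones and 3 in each tetraploid clone. In diploid clones 1 to 3 they ranked 3, 10 and 9, so a rank of 3 was also reached by a diploid clone. The tetraploid values were thus above the diploid range, and smaller than those of the named genes in tetraploid clones 1 and 2.

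Groups of chromosome 8 genes with a shared role followed the profile to different degrees. Genes of the same roles on other chromosomes were not set beside them. Whether a list's level belongs to the chromosome or to the role was therefore not tested. Function lists, 9 in number, held 226 genes of the chromosome, of which 181 were measured, and list medians are given relative to named genes of other chromosomes. The 38 replication, repair and chromosome genes stood at 0.24, 0.35 and 0.53 in triploid clones 1 to 3 and at 0.25, 0.72 and 0.23 in tetraploid clones 1 to 3. In the diploid clones they stood at 0.06, −0.15 and 0.02, below every polyploid value. By the fitted difference between group means, 37 of the 38 were above 0 in triploid and 35 in tetraploid clones, with medians of 0.46 and 0.49. In limma 0 of them passed the test at an adjusted p of 0.05 in either comparison, and 12 and 11 had an unadjusted p below 0.05, where 21.2% and 14.8% of all features had one. Over all members those medians were 0.30 and 0.30, and over all features 0.10 and −0.01. Hmgb2, a chromatin protein of dividing cells, read 6.01, 5.89 and 6.21 in the diploid clones, 7.29, 7.48 and 7.44 in the triploid clones and 6.53, 7.45 and 5.99 in the tetraploid clones. Its triploid values lay above all diploid ones and did not pass the test, with a difference of 1.37 ± 0.34 (SE) and an adjusted p of 0.0768 in limma. Sin3b, a corepressor scaffold, read 6.74 to 7.14 in diploid and 7.05 to 7.48 in triploid clones, and these ranges overlapped.

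**Figure D4:**
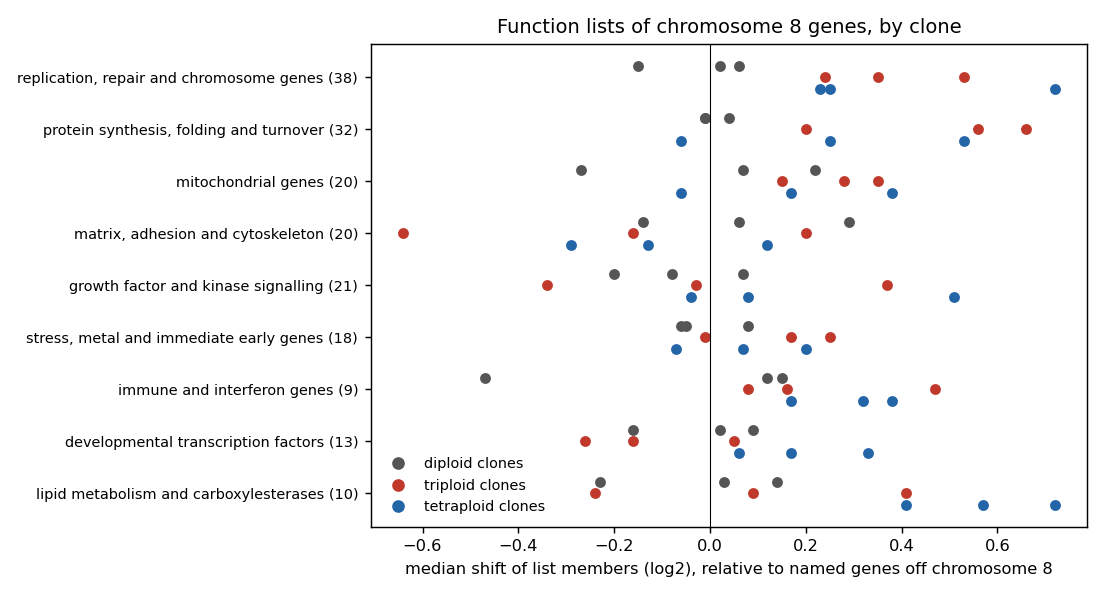
Median shift (x axis, log2, relative to named genes off chromosome 8) of 9 function lists of chromosome 8 genes (y axis, measured genes in brackets), 1 point per clone. For replication genes all polyploid points, at 0.23 to 0.72, lie right of the diploid ones, whereas for matrix genes points of the 3 ploidies intermingle.

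The 32 genes of protein synthesis, folding and turnover stood at 0.20, 0.56 and 0.66 in the triploid clones and at 0.25, 0.53 and −0.06 in the tetraploid clones. Here tetraploid clone 3 was level with the diploid clones, which stood at 0.04, −0.01 and −0.01. Rpl13, a protein of the large ribosomal subunit, read 10.34, 10.17 and 10.10 in triploid and 9.74, 10.05 and 10.18 in diploid clones, so that its groups overlapped. The 20 mitochondrial genes stood at 0.35, 0.15 and 0.28 in the triploid clones and at 0.17, 0.38 and −0.06 in the tetraploid clones, but the diploid clones spread from −0.27 to 0.22. Slc25a4, the carrier that exchanges ADP for ATP across the inner membrane, read 8.90 to 9.41 in triploid, 9.10 to 9.69 in tetraploid and 8.92 to 9.23 in diploid clones. In limma 0 members of either list passed the test in any comparison; against diploid clones, 12 and 5 of the protein synthesis genes and 5 and 3 of the mitochondrial genes had an unadjusted p below 0.05 in triploid and tetraploid clones, against the same 21.2% and 14.8% of all features.

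The 20 matrix, adhesion and cytoskeleton genes did not follow the shift of the chromosome. They stood at −0.64, −0.16 and 0.20 in the triploid clones, at −0.13, −0.29 and 0.12 in the tetraploid clones and at 0.29, 0.06 and −0.14 in the diploid clones. Their median fitted differences from diploid were −0.16 for triploid and −0.07 for tetraploid clones, with 8 of 20 above 0 in each. The 21 growth factor and kinase signalling genes stood at −0.34, −0.03 and 0.37 in the triploid clones and at 0.08, −0.04 and 0.51 in the tetraploid clones, and 2 of them, including Angpt2, fell in triploid against diploid clones. The 18 stress, metal and immediate early genes had fitted medians of 0.26 for triploid and 0.22 for tetraploid clones, and 3 of them, Mt2, Hp and Isyna1, rose in triploid clones while Klf2 fell. The 9 immune, 13 developmental transcription factor and 10 lipid genes had fitted medians of 0.36, 0.09 and 0.11 for triploid and 0.31, 0.33 and 0.35 for tetraploid clones, and 0 of them passed limma's test against diploid clones. At an unadjusted p below 0.05 there were 3, 5 and 2 for triploid and 2, 3 and 2 for tetraploid clones, against 21.2% and 14.8% of all features. The matrix, signalling and stress lists held 7, 8 and 7 such genes for triploid and 3, 3 and 4 for tetraploid clones.

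Between triploid and diploid clones, 15 members passed the test of the fit over all features, limma with an adjusted p below 0.05, 7 of them higher and 8 lower in triploid clones. They made up 2.19% of the members, and 1.84% of all features passed, 0.615% higher and 1.22% lower. Non-overlapping groups were more common: 197 members (28.8%) had all triploid values above all diploid values, against 17.2% of all features, and 50 (7.31%) had all below, against 10.8%. The chromosome was chosen from this contrast, so nothing is read from these shares. The 15 lay in 8 of the 10 bins, with 0 in the bins from Ptger1 to Brd7 and from Zfp612 to Fbxo31. Their number depended strongly on single clones: leaving out triploid clones 1, 2 and 3 in turn gave 57, 3 and 2, leaving out diploid clones 1, 2 and 3 gave 3, 6 and 3, and leaving out tetraploid clones 1, 2 and 3 gave 5, 11 and 13.

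The members that fell in triploid clones included a vessel ligand and a transcription factor. Klf2, a Krüppel-like factor whose promoter is printed above, read 3.26, 3.41 and 3.95 in diploid, 1.67, −0.19 and 0.57 in triploid and 3.57, 3.24 and 4.49 in tetraploid clones. Its triploid values lay below all others, with a difference of −2.86 ± 0.49 (SE), adjusted p = 0.0296 in limma. Angpt2, a ligand of the Tek receptor of blood vessels, read −0.50, −1.27 and −0.21 in diploid, −2.77, −3.21 and −3.34 in triploid and 0.59, −0.53 and 0.98 in tetraploid clones. The triploid clones were lowest and close together, and the difference was −2.45 ± 0.42 (SE), adjusted p = 0.0296 in limma. Without triploid clone 3 the adjusted p was 0.11 for Angpt2, and without diploid clone 3 it was 0.108 for Klf2.

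Several falling genes were at the limit of detection in triploid clones. Adgrg5, an adhesion G protein-coupled receptor, was not well above background on any triploid array, and its diploid mean of −1.58 against a measured triploid mean of −5.60 made it at least 4.4-fold lower there, adjusted p = 0.000587 in limma. Mfap3l was likewise dark in all triploid clones and at least 3.38-fold lower, with means of −1.90 and −4.40 and an adjusted p of 0.0435. Gnao1, a G protein alpha subunit, was above background on 2 of 3 diploid and 0 of 3 triploid arrays and at least 1.14-fold lower, with means of −3.53 and −5.46, adjusted p = 0.0468 in limma. Such a bound compares the diploid mean with the lowest signal that was called well above background on the triploid arrays. Asb5, of a family of ubiquitin ligase adaptors, was above background on 1 of 3 triploid arrays and differed by −3.26 ± 0.56 (SE), or −2.94 when the dark arrays take that lowest signal. Atp11a, a phospholipid flippase, read 3.72, 3.07 and 3.31 in diploid and 2.33, 1.86 and 2.18 in triploid clones, a difference of −1.24 ± 0.25 (SE) with groups that did not overlap. Adgrg5 was called whichever clone was left out, whereas Mfap3l, Gnao1 and Atp11a were called in 2 of 9 such fits each and Asb5 in 4. Adgrg5 was above background on 3 diploid and 2 tetraploid arrays, so it met the rule only through the diploid clones. Its call against the group in which it was dark is therefore a description.

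Among the members that rose in triploid clones, Hp and Isyna1 moved furthest. Hp, haptoglobin, which binds free haemoglobin, read −3.44, −2.85 and −3.26 in diploid, 2.07, 3.75 and 1.14 in triploid and −1.10, −3.31 and −2.13 in tetraploid clones. The triploid clones stood above all others by more than 2 log2 units, and the difference from diploid was 5.51 ± 0.69 (SE), adjusted p = 0.00896 in limma. Isyna1, the enzyme that makes inositol phosphate from glucose phosphate, read 1.84, 1.47 and −0.93 in diploid, 3.37, 5.63 and 5.39 in triploid and −2.09, −0.78 and −2.02 in tetraploid clones. Diploid clone 3 was the lowest of its group and came within the reach of the tetraploid clones, and the triploid difference from diploid was 4.00 ± 0.81 (SE), adjusted p = 0.0487 in limma. Dbndd1 read −2.26, −2.31 and −2.86 in diploid, −0.48, −0.46 and −0.52 in triploid and −3.35, −2.56 and −3.22 in tetraploid clones. Its triploid values were the closest together, at an SD of 0.03, with a difference of 1.99 ± 0.27 (SE), adjusted p = 0.0131 in limma. Hp was called whichever clone was left out and Dbndd1 in 6 of 9 such fits, with an adjusted p of up to 0.0592 without triploid clone 2. Isyna1 was called in 1 of 9, with 0.168 without triploid clone 2.

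Of the metallothionein cluster, Mt2 rose in triploid clones. Metallothioneins are small proteins that bind zinc, copper and cadmium, and 4 of their genes, Mt4, Mt3, Mt2 and Mt1, lie next to each other in the order of members. Mt2, whose promoter and that of Mt1 are printed above, read 4.45, 4.07 and 4.30 in diploid, 6.83, 6.81 and 5.89 in triploid and 5.05, 3.83 and 3.35 in tetraploid clones. The triploid values lay above all others, and the difference from diploid was 2.23 ± 0.44 (SE), adjusted p = 0.0444 in limma. Mt1 read 5.78, 5.50 and 6.15 in diploid, 6.85, 6.63 and 5.91 in triploid and 6.39, 4.36 and 4.40 in tetraploid clones. Its groups overlapped, at 0.65 ± 0.53 (SE) and an adjusted p of 0.523 in limma, and Mt3 and Mt4 differed by 0.16 and 0.12. The other 3 that rose were Grtp1, a Rab GTPase regulator, at 2.20 ± 0.42 (SE), Calr3, a calreticulin of the germ line above background on 2 of 3 diploid arrays, at 1.48 ± 0.30 (SE), and Bag4, a co-chaperone of Hsp70, at 1.12 ± 0.23 (SE), with adjusted p of 0.0435, 0.0478 and 0.049 in limma. Without triploid clone 2 the adjusted p of Mt2 was 0.157 and that of Calr3 0.158, and without triploid clone 3 those of Grtp1 and Bag4 were 0.147 and 0.168.

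**Figure D5:**
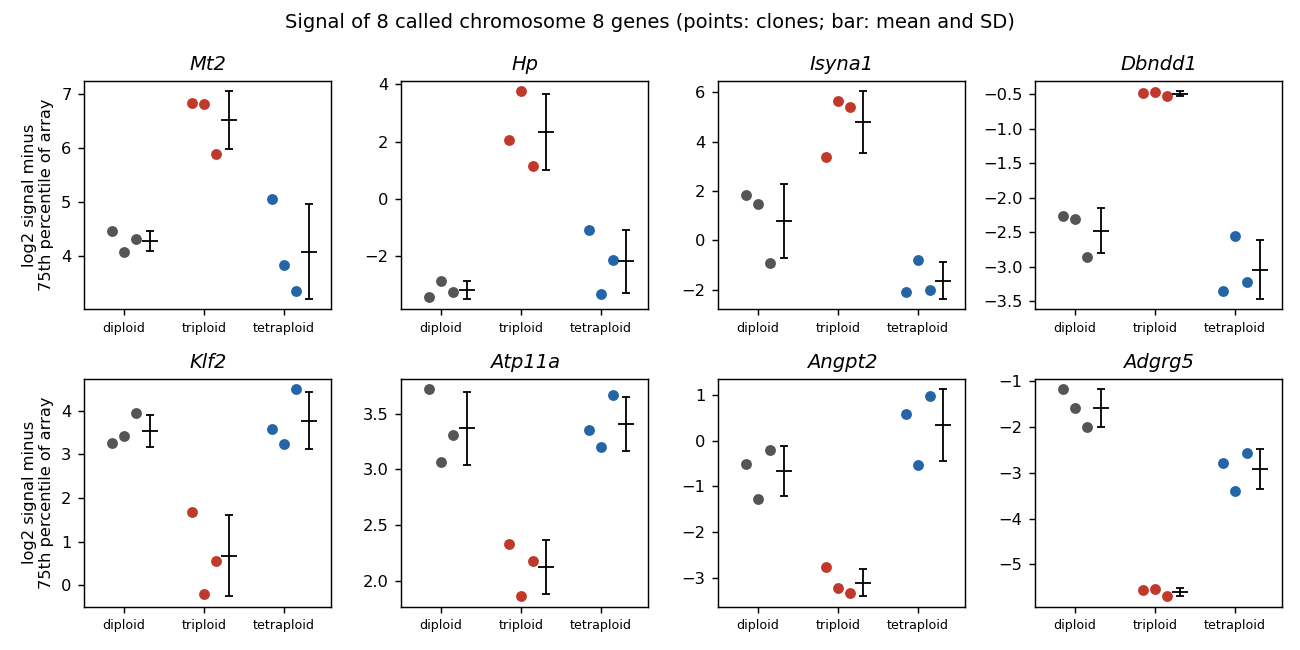
Log2 signal minus the array's 75th percentile (y axis, own scale per panel) of 8 chromosome 8 genes that passed the test between triploid and diploid clones. Points are the 3 clones of each ploidy and the bar shows mean and SD; triploid clones are highest for Mt2, Hp, Isyna1 and Dbndd1 and lowest for Klf2, Atp11a, Angpt2 and Adgrg5, where Adgrg5 is not above background.

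Neighbours of these genes mostly stayed with the profile. Comp, Isyna1 and Gdf15 lie within a run of 13 members, and in triploid against diploid clones they differed by −2.57, 4.00 and −4.53. Crtc1, Rex1bd, Fkbp8, Ell and Ssbp4, which lie among them, differed by 0.33, 0.30, 0.36, 0.19 and 0.52. Beside Hp, Txnl4b and Dhodh differed by 0.92 and 0.54, and beside Klf2, Ap1m1 and Eps15l1 differed by 0.30 and 0.28. Beside Asb5, however, Hpgd differed by −5.58 with an adjusted p of 0.0501, and beside Atp11a, Mcf2l differed by −3.07 with an adjusted p of 0.0558, both in limma and both short of the threshold.

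Between tetraploid and diploid clones, 0 members passed limma's test at an adjusted p of 0.05, where 0.0734% of all features passed. At an unadjusted p below 0.05, 127 members (18.6%) passed, 111 higher and 16 lower, against 14.8% of all features. The lowest adjusted p of a member in limma was 0.0759, for 1700029J07Rik, which read −4.32, −3.67 and −3.60 in diploid and −2.32, −1.66 and −2.43 in tetraploid clones. It was above background on 7 of the 9 arrays and dark in diploid clones 1 and 2, whose values are therefore not measured levels. This gene met the rule only through the polyploid clones, so its adjusted p is a description. All tetraploid values of 173 members (25.3%) lay above all diploid values, against 11.0% of features, and all of 23 (3.36%) lay below, against 11.1%. This contrast too was used to choose the chromosome, so these shares are a description. Without diploid clone 3, 2 members passed. The median fitted difference was 0.30 over members, 0.09 over named genes of other chromosomes and −0.01 over all features, and 505 of 684 members were above 0.

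The genes of highest signal in their bins differed in how far they moved in tetraploid clones. Cox4i1, a subunit of cytochrome c oxidase, read 8.44, 9.12 and 9.27 in diploid and 9.06, 9.34 and 8.41 in tetraploid clones, with overlap and a difference of −0.01 ± 0.32 (SE). Tpm4, a tropomyosin, differed by −0.03 ± 0.20 (SE), whereas Slc25a4 differed by 0.40 ± 0.24 (SE) and Sap18b by 0.26 ± 0.28 (SE). Larger differences with no call were those of Tradd, the adaptor of the tumour necrosis factor receptor, at 0.83 ± 0.25 (SE), and Brd7, a bromodomain protein, at 0.73 ± 0.29 (SE). Tradd read 3.72, 3.40 and 3.92 in diploid and 4.58, 4.45 and 4.50 in tetraploid clones, and its groups did not overlap, with an adjusted p of 0.18 in limma.

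Between triploid and tetraploid clones, 22 members passed the test, 5 higher and 17 lower in triploid clones. They made up 3.22% of members, and 2.70% of all features passed, 1.09% higher and 1.61% lower. All triploid values lay above all tetraploid values for 61 members (8.92%), against 14.7% of features, and below for 98 (14.3%), against 11.3%. The median fitted difference was 0.01 over members and 0.17 over all features. Leaving out triploid clones 1, 2 and 3 in turn gave 57, 7 and 9 called members, leaving out tetraploid clones 1 and 3 gave 10 and 6, and leaving out diploid clone 1 gave 13.

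The lower members in triploid clones included 2 genes of prostaglandin handling. Hpgd, the enzyme that inactivates prostaglandins, read −5.07, −5.85 and −2.09 in triploid, 3.79, 2.31 and 3.37 in tetraploid and 1.08, −0.83 and 3.5 in diploid clones. It was above background on 1 of 3 triploid arrays, and the difference from tetraploid was −7.49 ± 1.17 (SE), adjusted p = 0.0171 in limma, or −6.34 when the dark arrays take the lowest signal above background. Ptger1, a receptor for prostaglandin E, read −0.57, −2.25 and −2.76 in triploid, 1.91, 0.42 and 2.03 in tetraploid and −1.26, −1.51 and −0.05 in diploid clones. It differed by −3.31 ± 0.65 (SE), adjusted p = 0.0363 in limma, and its triploid and diploid values overlapped. Without tetraploid clone 3 the adjusted p was 0.071 for Hpgd and 0.127 for Ptger1.

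Matrix and adhesion genes made up others. Comp, a cartilage matrix protein, was not above background on any triploid array and read 1.53, −0.71 and 1.58 in tetraploid clones, at least 22.6-fold lower in triploid clones from means of −4.00 and 0.80, adjusted p = 0.0116 in limma. Cdh13, a cadherin held by a lipid anchor, read 0.11, −2.14 and −5.30 in triploid and 3.28, 2.56 and 3.17 in tetraploid clones, a difference of −5.45 ± 1.08 (SE), or −4.91 when the dark array takes that lowest signal. These 2 were the called members of the matrix list. Pgbd5, derived from a transposase, was dark in all triploid clones and at least 18.2-fold lower, and Foxl1, a forkhead factor of the gut mesenchyme, likewise at least 6.92-fold, with means of −4.77 against 0.46 and −4.72 against −0.89. Pgbd5 was above background on 2 diploid and 3 tetraploid arrays, so it met the rule only through the tetraploid clones. The call of Pgbd5 is therefore a description. Thsd1, a membrane protein with a thrombospondin domain, differed by −4.52 ± 0.75 (SE), or −4.50 on the same footing. Without tetraploid clone 3 the adjusted p in limma was 0.0534 for Comp, 0.119 for Cdh13, 0.121 for Pgbd5 and 0.0844 for Thsd1, and that of Foxl1 was 0.04998 with all clones and up to 0.171 under alternatives.

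The genes that separated triploid from diploid clones separated them from tetraploid clones as well in part. Isyna1 differed by 6.42 ± 0.81 (SE), Dbndd1 by 2.56 ± 0.27 (SE) and Angpt2 by −3.45 ± 0.42 (SE), with adjusted p of 0.00742, 0.00354 and 0.0066 in limma, and all 3 were called under each of 18 alternatives. Hp differed by 4.50 ± 0.69 (SE), Mt2 by 2.43 ± 0.44 (SE) and Klf2 by −3.08 ± 0.49 (SE). Their adjusted p in limma rose to 0.0633 without tetraploid clone 3 for Hp, 0.103 without triploid clone 2 for Mt2 and 0.0721 without triploid clone 3 for Klf2. Both comparisons use the same triploid arrays. Vegfc, a growth factor of lymphatic vessels, read 2.99, 2.93 and 2.85 in triploid, 2.04, 0.45 and 0.70 in tetraploid and 1.96, 2.16 and 1.91 in diploid clones, a difference of 1.86 ± 0.38 (SE) from tetraploid, adjusted p = 0.0379 in limma. Triploid values lay above both other groups, and tetraploid clone 1 was level with the diploid clones. The call of Vegfc held in 3 of 9 fits that left out a clone, with an adjusted p of 0.127 without tetraploid clone 3. Nfix, a transcription factor of muscle and brain development, differed by −1.27 ± 0.27 (SE), adjusted p = 0.0457 in limma, and its groups did not overlap. That call held in 1 of 9 fits that left out a clone, with an adjusted p of 0.154 without triploid clone 2. With the slide as a block the adjusted p was 0.0665 for Vegfc and 0.0715 for Nfix.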

How the data were processed

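Agilent 1-colour arrays with a design on mm9 were read by the authors with Feature Extraction 10.7.3.1, per the file headers, which deposited processed signals as intensity after background subtraction, with no scaling between arrays. The authors' deposited table of log2 values equals those log2 signals less a constant per array and less diploid clone 1, within 0.001 at 100% of probes, and served as an alternative. Here spots of a probe were averaged on the log2 scale, leaving out flagged spots, and the 75th percentile of an array was subtracted from all its values. Of 55681 probes, 25469 were well above background, by the majority of their spots, on all arrays of at least 1 ploidy. Accessions were named through the RefSeq table of GRCm38.p6, which also gave chromosome and gene order. The brightest probe stood for a gene, giving 12434 named genes and 9363 unnamed probes. Linear models with 1 mean per ploidy over all 9 arrays were fitted in R 4.3.3 with limma 3.58.1 (prior degrees of freedom 3.19), with Benjamini-Hochberg adjustment over 21797 features, and were tested on simulated data. Arrays give no counts, and 3 clones per ploidy limit the precision.

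Members, lists and rules were chosen with earlier results of these data known. Genes named were, per comparison, up to 10 called members in each direction whose groups did not overlap, called list members, the 2 members of highest signal per list, and the first, last and highest-signal gene of each bin. Neighbours, members at the edge of the rule and 1700029J07Rik were named after their values were seen. Some genes under the rule are not reported here. Alternatives were other scalings, background correction, filters, probe rules, centrings, bin widths, blocks and leaving out each clone. Normexp used median signals.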

Additional observations from a re-analysis of the deposited data

How the results depend on the processing

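Members called between triploid and diploid clones numbered 15, and 3 with no filter on dim probes, 3 with the slide as a block, which sets aside diploid clone 1, and 2 to 57 when a clone was left out. Members called between triploid and tetraploid clones numbered 22, and 11, 13 and 6 to 57 under the same settings. Between tetraploid and diploid clones the count was 0, and 0 to 2 when a clone was left out. Clone numbers are shared by the groups, but deviations of same-numbered clones correlated at −0.13 to 0.09, so they do not pair the samples. With clone number as a replicate block the counts were 10, 21 and 0 for the 3 comparisons in that order. The mean tetraploid shift of 0.32 was 0.24 as a mean over genes, 0.24 after quantile normalization, 0.25 with no filter, 0.21 when centred on named genes of other chromosomes and 0.20 on named autosomal genes, and 0.28 to 0.36 when a clone was left out. The triploid mean of 0.21 was 0.09 to 0.22 under alternatives that kept all clones and 0.11 to 0.32 when a clone was left out. The share of bins above 0 in triploid clone 1 was 40% and became 70% under both centrings on named genes. With position-named probes in place of genes the share fell from 100% to 30% and 40% in triploid clones 2 and 3 and to 40%, 50% and 20% in tetraploid clones 1 to 3; the cause was not tested. On the scale of all features the median of those probes was −0.08 and −0.04 in triploid clones 2 and 3 and −0.04, −0.01 and −0.15 in the tetraploid clones, below 0 where the genes were above it. The other alternatives left the group mean shifts of both polyploid groups above 0. Arrays bound rather than measure genes that are dark in a ploidy, and leaving out triploid clone 1 raised both counts with triploid clones to 57.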

Other observations

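Among the probes left out of the profile because their names give only a chromosome 8 position on mm9, 1 passed limma's test between triploid and diploid clones, at chr8:41934312-41945487, adjusted p = 0.0465, with a difference of 1.65 ± 0.33 (SE). It read −1.27, −2.59 and −1.61 in diploid, 0.02, −0.18 and −0.34 in triploid and −0.60, −0.41 and −0.79 in tetraploid clones, so that both polyploid groups lay above the diploid one. It was chosen after its values were seen.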
